A study of Vitis vinifera with 2 samples.

Results

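The outermost 1 Mb of the grapevine chromosomes was described from methylation of single cytosines in the diploid 'Jingyanjing' (2X) and in its autotetraploid (4X). Each of the 19 chromosomes has a left end, which starts at its first position, and a right end, which stops at the largest position listed in either file. An end was the 1 Mb next to that limit, so there were 38 ends. They were divided into 3800 windows of 10 kb, of 42626 such windows on the 19 chromosomes. They held 8475123 of the 87797533 cytosines listed in both libraries on these chromosomes, or 9.65%. The ends were chosen by position alone, and no measured value entered that choice.

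The 4X line was produced from 2X by colchicine, a drug that blocks chromosome segregation and doubles the genome, and vines of both lines had the same standard management. DNA came from terminal buds (tip buds) collected 1 week before the terminal buds of 4X fell off, pooled over 3 vines of each line, and whole-genome bisulfite sequencing gave 1 library per line. Bisulfite turns unmethylated cytosines into bases read as thymine, so the methylation level of a region is the percent of its reads that still show cytosine. With 1 library per line there was no replicate check, every test compared 2 libraries and not 2 conditions, and all intervals cover counting error only. The intervals treat all counts as independent, although neighbouring cytosines share reads and reads may be copies of 1 molecule. They may therefore be too narrow. Use of molecular identifiers is not given in the sources used here. No measurement here could check the tissue against marker genes.

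Plant DNA is methylated in 3 sequence contexts, CG, CHG and CHH, in which H is any base but G. CG methylation is copied at each replication by the maintenance enzyme MET1. CHG methylation is kept by CMT3, which is guided by methylated histone H3. CHH methylation is set anew by CMT2 or by RNA-directed DNA methylation. Transposons and other repeats carry all 3, and bodies of many expressed genes carry CG methylation alone. Chromosome ends are capped by telomere repeats, followed inward by subtelomeric repeats and then, in many plants, by gene-rich arms.

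The ends held 15.3 CG, 27.9 CHG and 180 CHH cytosines per kb listed in both libraries. The rest of the chromosomes held 13.8, 23.2 and 167 per kb. Mean depth in the ends was 13.9 to 14.5 reads per cytosine in 2X and 12.8 to 13.3 in 4X, depending on context. Every listed cytosine had at least 3 reads.

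In 2X the CG level of the ends was 56.7% (95% Wilson interval 56.71 to 56.78, 580702 cytosines). The rest of the chromosomes was at 59.6%, and the next 1 Mb inward at 50.8%. In 4X the corresponding CG levels were 56.8%, 59.4% and 50.7%. The ends were therefore below the chromosomes as a whole and above their neighbouring megabase in both libraries. The difference from the rest was -2.85 percentage points in 2X (95% interval -2.89 to -2.82) and -2.66 in 4X.

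The CHG context followed the same order. The CHG level of the ends was 22.5% in 2X (22.51 to 22.56, 1060578 cytosines) and 22.0% in 4X. The rest of the chromosomes was at 28.2% and 27.7%, respectively. The next 1 Mb was at 18.3% and 17.8%. The difference from the rest was -5.66 points in both libraries.

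In the CHH context the ends seemed higher than the rest, with 3.04% against 2.41% in 2X and 3.36% against 2.36% in 4X. That excess lay in a small set of repeat arrays, described further on. Without cytosines within 1 kb of such arrays, 0.0707% of the CHH cytosines of the ends, the level of the ends was 2.06% in 2X and 2.02% in 4X. The rest was then at 2.39% and 2.34%, and the next 1 Mb at 1.86% and 1.79%. So without the arrays the order of the 3 regions was the same in CG, CHG and CHH.

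At single cytosines, CG methylation in the ends was mostly present or absent. In 2X, 50.04% of the CG cytosines of the ends had a level of 80% or more, 34.7% were under 10%, and 15.2% lay between. In 4X the shares were 50.1%, 34.6% and 15.2%. For CHG, 15.0% of the cytosines of the ends in 2X had a level of 80% or more and 70.6% were under 10%. For CHH, 93.2% were under 10%. Further than 2 Mb from an end the share of CG cytosines under 10% was lower, with 28.2%, and the share of CHG cytosines of 80% or more was higher, with 20.1%. In the next 1 Mb these 2 shares were 37.0% and 12.2% in 2X.

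Methylation fell from the end inward in all 3 contexts. In 2X the outermost 100 kb of the 38 ends had a CG level of 67.5%, the second 100 kb 59.7%, the third 55.1% and the fourth 52.8%. From there to 1 Mb the steps lay between 48.2% and 56.0%. The outermost 100 kb exceeded the innermost (900 to 1000 kb, 53.7%) by 13.8 points. In 4X the outermost 100 kb was at 68.1% and the innermost at 53.7%.

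The CHG gradient was steeper in relation to its level. It went from 34.9% in the outermost 100 kb to 15.4% in the innermost in 2X, and from 34.7% to 14.9% in 4X. CHH without the arrays went from 2.73% to 1.68% in 2X and from 2.68% to 1.62% in 4X. A rise in the levels between 600 and 800 kb interrupted the decline, with CHG at 22.6% and 22.3% in 2X.

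**Figure D1:**
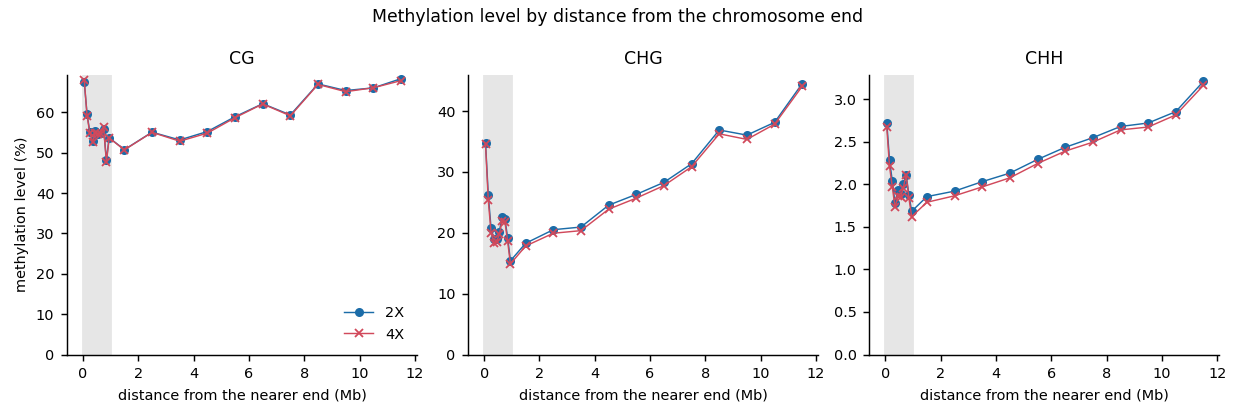
Methylation level (%, y axis) against distance from the nearer chromosome end (Mb, x axis) in CG, CHG and CHH, in steps of 100 kb within the ends (grey) and of 1 Mb further in, without cytosines within 1 kb of the CHH arrays. Points are pooled reads of 2X (circles) and 4X (crosses). Levels were high in the outermost 100 kb and lower over the rest of the ends and at 1 to 2 Mb, without a steady fall in CG. They were high again at 11 to 12 Mb, where CG reached 68.4% and CHG 44.5% in 2X. Shorter chromosomes have no windows at that distance, so the set of chromosomes changes along the x axis.

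Beyond the ends the direction turned. In 2X the CHG level was 18.3% at 1 to 2 Mb, 24.5% at 4 to 5 Mb and 44.5% at 11 to 12 Mb. The CG level was 50.8%, 55.3% and 68.4% at the same distances. Distance was taken to the nearer end, so shorter chromosomes have no windows at 11 to 12 Mb. The set of chromosomes thus changes along the profile. In 2X the outermost 100 kb, at 67.5% CG and 34.9% CHG, was near the 11 to 12 Mb step in CG and below it in CHG. With all reads further than 2 Mb from an end pooled, the levels in 2X were 60.6% CG and 29.4% CHG. The outermost 100 kb was above these levels in both contexts.

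The outermost 10 kb alone reached a CG level of 86.4% in 2X and 87.4% in 4X. Its mean CG depth was 30.8 and 31.8 reads, against 14.7 and 13.7 in the next 10 kb. With cytosines deeper than the 99th percentile left out (the deepest cytosines), the outermost 10 kb was at 75.5% and 75.9%, close to the next 10 kb in the same setting (74.5% and 74.4%). The CHG level of the outermost 10 kb was 49.996% in 2X with all cytosines and 40.4% without the deepest.

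The gradient was also seen in windows grouped by their pattern. Of 371 windows in the outermost 100 kb with at least 20 CG and 20 CHG cytosines, 48.5% had a CHG level of 40% or more in 2X, the pattern known from repeats. In the innermost 100 kb 20.3% of 360 windows did. Windows with a CG level of 10% or more and a CHG level under 5%, the pattern known from gene bodies, made up 10.8% of the outermost and 37.5% of the innermost 100 kb. Over the whole ends the CHG-rich windows were 28.6% and the windows with CG methylation alone 29.5% of 3716. Further than 2 Mb from an end these shares were 43.5% and 17.7%. In the next 1 Mb they were 24.5% and 30.7%. Genes and repeats were not annotated here, so the patterns carry no other label.

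The 38 ends differed widely from each other. In 2X the CG level ranged from 37.3% to 85.1%, with a median of 57.5%. The CHG level ranged from 8.25% to 51.2%, with a median of 20.5%. The CHH level without the arrays ranged from 1.14% to 4.02%, with a median of 1.956%. Ends high in 1 context were high in the others: over 38 ends the CG and CHG levels of 2X had a Pearson r of 0.894, and the CHG and CHH levels without the arrays of 0.941. These are descriptions across ends of 1 library, which share its depth and reads.

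The left end of chromosome 15 had the highest CG and CHG levels, with 85.1% CG in 2X and 86.0% in 4X, and with 51.2% and 51.3% CHG, although without the deepest cytosines the right end of chromosome 17 was higher in CHG (49.3% against 48.0% in 2X). In 73 of its 100 windows the CHG level was 40% or more in 2X. Its outermost window was read to a depth of 156 in 2X and 168 in 4X, and without the deepest cytosines its CG level was 80.1% and 80.3%. The right end of chromosome 17 followed, with 76.8% CG, 49.96% CHG and, at 4.02%, the highest CHH level without the arrays in 2X. Of its 94 windows 68 were CHG-rich. The right ends of chromosomes 2 and 3 had CG levels of 76.1% and 74.1% and CHG levels of 45.4% and 43.8%.

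At the other extreme, the right end of chromosome 8 had the lowest CHG level, with 8.25% in 2X and 7.72% in 4X, and a CG level of 38.1% and 38.8%. Its CHH level, 1.18% in 2X and 1.08% in 4X, was the lowest of the ends in 4X. Also low was the left end of chromosome 17, with a CG level of 39.0% in both libraries, a CHG level of 8.89% and 8.44%, and the lowest CHH level in 2X, 1.14%. In 51 of its 99 windows CG methylation stood alone. The 2 ends of chromosome 17 were thus near opposite limits of the range. The left end of chromosome 10 had the lowest pooled CG level, 37.3% in 2X and 37.4% in 4X. It holds 1 window at 30 to 40 kb that was read to a depth of 320 and 294 with a CG level of 2.69% and 2.75%. Without the deepest cytosines that end was at 55.0% in both libraries, near the median.

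**Figure D2:**
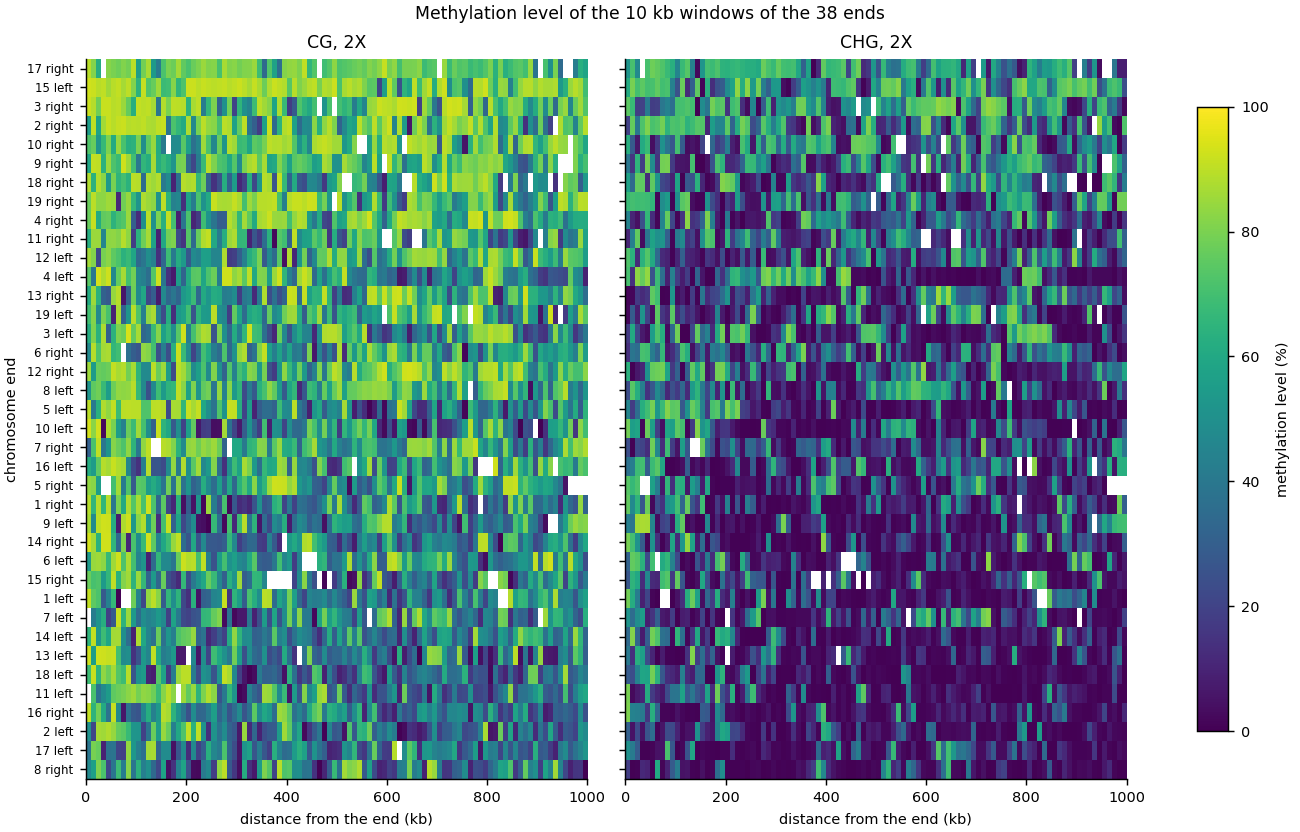
Methylation level (colour, %) of the 10 kb windows of the 38 ends (rows) by distance from the end (x axis, kb) in CG and CHG of 2X, with white for windows under 20 cytosines. Rows are ordered by CHG level without the deepest cytosines, so that 17 right (49.3%) is at the top and 8 right (7.91%) at the bottom. CHG-rich windows run over the whole megabase in the top rows and are gathered in the outermost 100 to 200 kb in some of the lower rows. The bottom row is an exception, since the outermost 100 kb of 8 right had the lowest CHG level of the 38 ends (7.50%).

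The left and right ends of a chromosome did not go together. Without the deepest cytosines, r between them over 19 chromosomes was -0.289 in CG and -0.325 in CHG in 2X. The level of an end and that of the rest of its chromosome were only loosely related, with r of 0.301 in CG for the mean of both ends. In 23 of 38 ends the CG level was below that of the rest of the same chromosome, and in 29 of 38 the CHG level was. The largest excess over the rest of the chromosome in CHG was 26.0 points, at the right end of chromosome 17. The largest deficit was at the right end of chromosome 16, with a CHG level of 9.96% against 33.9% in the rest of that chromosome in 2X.

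**Figure D3:**
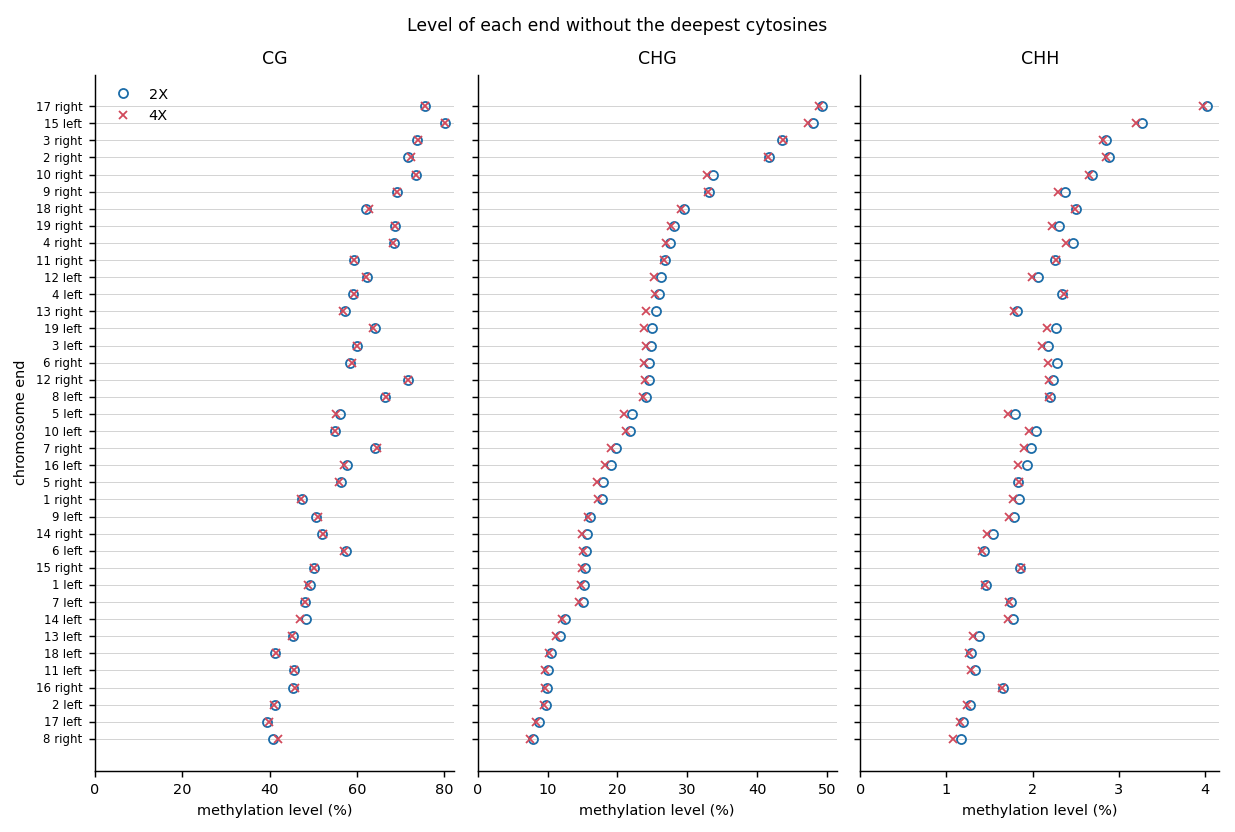
Methylation level (%, x axis) of each of the 38 ends (y axis) without the deepest cytosines, in CG, CHG and CHH, for 2X (circles) and 4X (crosses). Ends are ordered by CHG level in 2X. The symbols of both libraries nearly coincide at every end, while CG levels span 39.5% to 80.1% among the ends in 2X.

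The decline from the outermost to the innermost 100 kb was common and not general. In 2X it was seen in 31 of 38 ends in CG, in 33 in CHG and, without the arrays, in 34 in CHH. Without the deepest cytosines it was seen in 33 ends in CG. The CG decline was largest at the left end of chromosome 4, from 75.5% to 34.2%. The CHG decline was largest at the left end of chromosome 5, from 59.3% to 5.03%. The right end of chromosome 10 went the other way in CHG, from 22.9% in its outermost to 37.7% in its innermost 100 kb. The left end of chromosome 10 had the lowest CG difference, from 24.4% to 53.8%, and holds the deep window named above. Without the deepest cytosines the lowest CG difference was -8.43 points, at the right end of chromosome 10. In CHH the right end of chromosome 19 had the lowest difference, -0.473 points (-1.50 without the arrays). The largest CHH difference, 56.9 points, was at the right end of chromosome 10, where arrays lie, and without the arrays it was 3.05 points at the right end of chromosome 12.

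Some windows of the ends were read far more deeply than the rest. With a median window depth of 13.1 reads in 2X, 15 windows of the ends (0.395%) and 47 of the rest (0.121%) had at least 5 times that depth. These 15 windows held 4.13% of the reads of the ends. In 8 of them the CG level was under 10%, and in 5 it was 80% or more. Why they were read so deeply was not tested.

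The arrays named above were found from the positions of the cytosines alone. Telomere repeats of most plants have a unit of 7 bp with 3 neighbouring cytosines on 1 strand. Runs of at least 4 triplets of neighbouring CHH cytosines with starts 7 bp apart and no other listed cytosine between them were taken as arrays. The sequence itself was not read here. On the 19 chromosomes there were 39 such arrays, and 32 of them lay in 16 of the 38 ends. In 8 ends an array lay within 1 kb of the last position. The longest, of 76 triplets, filled the last 528 bp of chromosome 1 (positions 23037112 to 23037639).

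Most reads of the arrays still showed cytosine and were counted as methylated. Whether bisulfite conversion was complete at the arrays was not tested. The 1335 array cytosines in the ends had a CHH level of 98.3% in 2X and 98.1% in 4X. Over the 28 arrays read in 2X the median level was 97.0%, 20 had 90% or more, and the lowest was 30.4%. Over the 31 read in 4X the median was 97.3%, 23 had 90% or more, and the lowest was 7.41%. The pooled level is weighted towards the deepest arrays. Some were read at great depth. The array at 710 kb from the left end of chromosome 12 had 4069 reads per cytosine in 2X and 5417 in 4X, at levels of 99.7% in both. At the last position of chromosome 1 the array had 413 and 575 reads per cytosine, at 94.6% in both. The arrays at 40 kb from the right end of chromosome 10 had 993 to 1972 reads in 2X and 1281 to 2440 in 4X.

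The arrays held 0.851% of the CHH reads of the ends in 2X and 1.20% in 4X. Of the methylated CHH reads of the ends they held 27.5% and 35.1%. The number of reads in them was 1.30 times higher in 4X than in 2X, whereas the number of all CHH reads of the ends was 0.924 times that of 2X. The CHH levels of 4 ends rested on them. For the left end of chromosome 12 it was 14.0% in 2X and 18.6% in 4X with the array and 2.07% and 1.99% without it. The right ends of chromosomes 10, 3 and 1 were at 13.1%, 9.39% and 5.67% in 2X with their arrays and at 2.67%, 2.81% and 1.85% without them.

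**Figure D4:**
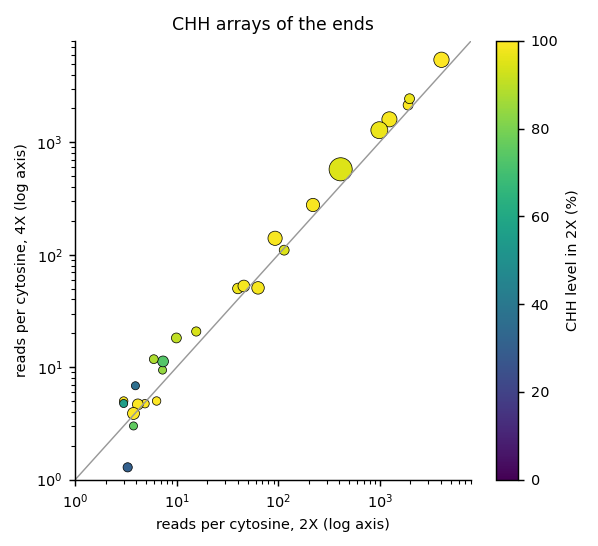
Reads per cytosine of 4X (y axis, log scale) against 2X (x axis, log scale) for the CHH arrays of the ends that were read in both libraries, coloured by their CHH level in 2X and sized by the number of triplets. The grey line marks equal depth. The arrays read to 220 or more per cytosine in 2X all lie above the line, and the deepest has 4069 reads in 2X and 5417 in 4X.

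The 2 libraries were compared by the 4X minus 2X differences, which with 1 library per line cannot be assigned to ploidy. With all reads of the ends pooled, CG was 0.0425 points higher in 4X (95% interval -0.00579 to 0.0909), CHG fell by 0.515 points (-0.546 to -0.485) and CHH was 0.317 points higher (0.312 to 0.322). Pooled reads weight a cytosine by its depth, and the libraries were not read to the same relative depth everywhere. Away from the arrays, CHG cytosines of the ends with a level under 10% had 0.935 times as many reads in 4X as in 2X, and those of 80% or more had 0.903 times as many. The comparison was therefore repeated with each cytosine as its own stratum (Mantel-Haenszel difference), an analysis chosen after the pooled values were seen.

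Cytosine by cytosine, CG in the ends was 0.249 points higher in 4X (95% interval 0.223 to 0.275). The CHG difference was -0.0297 points (-0.0465 to -0.0130) and the CHH difference -0.0286 points (-0.0322 to -0.0250). The CHG difference was thus far smaller than with pooled reads, and the CHH direction was reversed. In the rest of the chromosomes the matched differences were 0.256, -0.0334 and -0.0363 points. The interval of the CG difference of the ends overlapped that of the rest. In CHH the outermost 100 kb had a matched difference of -0.0551 (-0.0663 to -0.0438), so that the ends as a whole lay above the rest and their outermost step below it. Without the arrays the outermost 100 kb was at -0.0337 (-0.0452 to -0.0222), the ends at -0.0251 and the rest at -0.0361. The outermost step was then not below the rest. The difference between the ends and the rest was not tested.

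Matched by cytosine, CG was higher in 4X at 34 of 38 ends, and the 95% interval lay above 0 at 26 and below 0 at 1. The largest rise was at the right end of chromosome 6 (0.604 points, 0.414 to 0.795), and the left end of chromosome 7 had the lowest value (-0.237, -0.423 to -0.0503). CHG was lower at 25 ends and higher at 13, from -0.284 at the right end of chromosome 8 to 0.395 at the right end of chromosome 2, and the interval lay below 0 at 10 ends and above 0 at 6. CHH was lower at 32 ends, from -0.0878 at the right end of chromosome 9 to 0.0769 at the right end of chromosome 5, and the interval lay below 0 at 22 ends and above 0 at 3. With all reads pooled, CHG was lower at 34 of 38 ends and CG at 23.

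The ends with the extreme pooled differences had smaller differences when matched. The left end of chromosome 14 had the lowest pooled CG difference, -1.32 points (from 49.1% to 47.8%), and a matched difference of -0.0378 (-0.205 to 0.129). The right end of chromosome 13 had the lowest pooled CHG difference, -1.60 points (from 27.1% to 25.5%), and a matched one of -0.185. The left end of chromosome 12 had the largest pooled CHH difference, 4.58 points, and a matched one of -0.0617. The right end of chromosome 2 had the largest pooled difference in CG, 1.30 points, and in CHG, 0.690 points. Its matched differences were 0.453 (0.311 to 0.594) and 0.395 (0.251 to 0.538), so that it was higher in 4X in both contexts either way. The lowest pooled CHH difference, -0.135, was at the left end of chromosome 19, where the matched one was -0.0134.

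**Figure D5:**
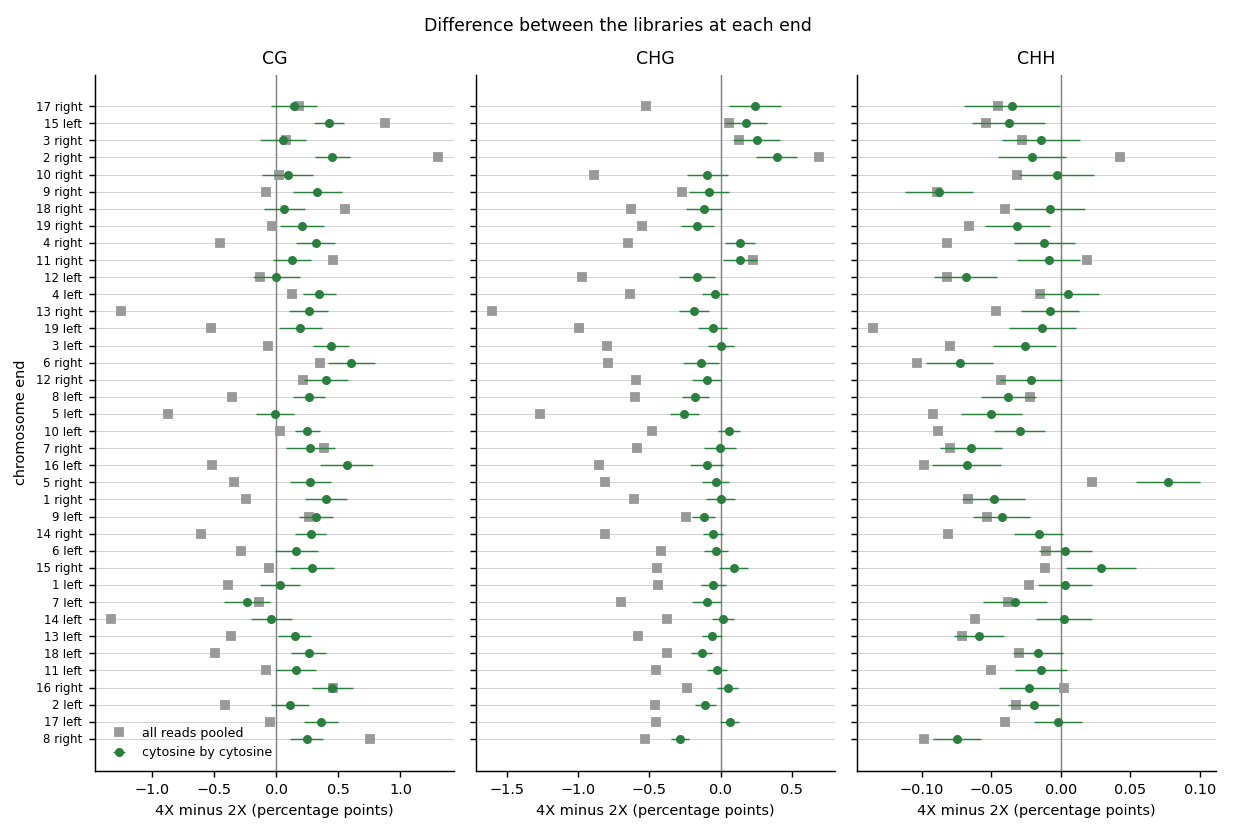
Difference 4X minus 2X (percentage points, x axis) at each of the 38 ends (y axis) in CG, CHG and CHH without cytosines within 1 kb of the CHH arrays. Grey squares pool all reads and green circles compare cytosine by cytosine, with 95% intervals of counting error. In CHG the squares lie left of 0 at 34 of 38 ends, while the circles lie on both sides of 0.

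The windows of the ends were compared next. The methylation levels of 2X and 4X had a Pearson r of 0.993 (CG), 0.997 (CHG) and 0.991 (CHH) across windows of the ends, which share libraries and depth. Of 3716 windows, 95.8% kept their class by CG and CHG level. With a Fisher exact test of pooled reads, a Benjamini-Hochberg adjusted p under 0.05 and a difference of at least 5 points, 133 of 3719 windows were higher in CG in 4X and 118 lower. These are 3.58% and 3.17%, against a background on the 19 chromosomes of 3.06% and 3.26%. In CHG 40 of 3735 windows were higher and 73 lower, against a background of 1.64% and 2.49% of all windows, so that the shares of the ends (1.07% and 1.95%) were below it. By the adjusted p alone, without the size limit, 19.1% of the CHG windows of the ends were called, against 17.4% on the 19 chromosomes. In CHH, with a difference of at least 1 point, 51 of 3770 were higher and 52 lower, against a background of 1.39% and 1.71%. Pooled reads weight a cytosine by its depth, so this test can call a window whose cytosines do not differ.

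The windows were also tested cytosine by cytosine. With each cytosine as its own stratum and the same limits, 31 windows of the ends were higher in CG and 4 lower, against a background of 0.74% and 0.259%. The shares in the ends were 0.834% and 0.108%, the former near the background and the latter below it. In CHG 15 were higher and 11 lower, or 0.402% and 0.295%, both below the background of 0.746% and 0.531%. In CHH 29 were higher and 32 lower, or 0.769% and 0.849%, below the background of 0.952% and 1.21%. The next 1 Mb was also below the background, with 0.670% and 0.241% in CHG and 0.714% and 1.03% in CHH. By the adjusted p alone, without the size limit, the ends were not below it. That called 498 of 3735 CHG and 1141 of 3770 CHH windows of the ends, against 5034 of 41264 and 11066 of 42113 on the 19 chromosomes. Of the 251 CG windows called from pooled reads, 21 were also called in this way.

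The window with the largest pooled CG rise lay at 250 to 260 kb from the right end of chromosome 5 (positions 24760636 to 24770635). Its pooled level went from 35.8% to 47.7%, but its matched difference was -0.152 points, and the stratified test did not call it. The largest pooled CG fall was at 570 to 580 kb from the left end of chromosome 19, from 58.6% to 44.0%, with a matched difference of -3.91 that was not called. The leading CHG windows were called by both tests, but neither was called with cytosines of at least 10 reads in both libraries, which left 3 cytosines on chromosome 16 and 5 on chromosome 13. The window on chromosome 16 also lost its call without the deepest cytosines (-13.4 points). On chromosome 16, at 460 to 470 kb from the left end (positions 460001 to 470000), CHG went from 72.7% (189 of 260 reads) to 57.7% (94 of 163 reads), with a matched difference of -14.0 points (-23.2 to -4.84). On chromosome 13, at 900 to 910 kb from the left end (positions 900001 to 910000), CHG went from 44.2% to 58.7%, with a matched difference of 9.67 (3.12 to 16.2). CHH rose in the same window, from 7.41% to 13.5%, while CG went from 83.6% to 76.3%. In CHH the largest pooled rise, from 69.2% to 80.1%, was in the outermost window of the right end of chromosome 12, which holds 2 arrays. Its matched difference was 0.937 points, under the limit of 1, and its pooled difference without the arrays was -0.536. The largest pooled CHH fall was at 860 to 870 kb from the left end of chromosome 14, from 55.2% to 43.7%, with a matched difference of -2.85 (-4.16 to -1.55).

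Among the windows called by the stratified test, 3 more, all rises in 4X, were picked after their values were seen. At 820 to 830 kb from the left end of chromosome 16 (positions 820001 to 830000) CG rose from 31.7% to 42.5%, by 11.8 points when matched (8.09 to 15.4), while CHG was 4.33% and 2.47%. At 390 to 400 kb from the right end of chromosome 18 (positions 28959202 to 28969201) CG rose from 66.9% to 77.7% and CHG from 57.5% to 68.8%, with matched differences of 10.9 and 9.12 points. CHH was also called higher in that window, by 1.33 points when matched. At 330 to 340 kb from the right end of chromosome 16 (positions 21713072 to 21723071) CHG rose from 52.1% to 62.8%, by 12.4 points when matched (9.43 to 15.4).

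Differentially methylated regions (DMRs) were sought in bins of 100 bp sliding by 25 bp by ranking the levels of single cytosines (Kruskal-Wallis test). In the ends 0 DMRs were found in CG and 0 in CHG at an adjusted p under 0.05, and 15812 of 457249 CG bins and 16399 of 463718 CHG bins had an unadjusted p under 0.05. On the 19 chromosomes these were 163217 of 4935670 and 175691 of 5220257 bins. A bin of the ends held a median of 2 CG and 4 CHG cytosines, with which ranks can hardly differ, and the smallest adjusted p was 0.187 in CG and 0.297 in CHG. A Fisher test of the summed reads of a bin gave 875 CG DMRs in the ends, 582 of them higher in 4X, and 837 CHG DMRs, 409 of them higher. It called 0.326% of the CG bins of the ends higher and 0.131% lower, against a background of 0.297% and 0.135%, and in CHG 0.153% and 0.136%, against 0.157% and 0.159%.

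In CHH the rank test found 4184 DMRs in the ends, 1874 of them higher and 2310 lower in 4X. It called 0.587% of the CHH bins of the ends higher and 0.742% lower, against a background of 0.47% and 0.624%. Per Mb there were 110 CHH DMRs in the ends, 106 in the next 1 Mb and 91.6 in the rest. As a share of the bins tested, 1.33% were called in the ends, 1.35% in the next 1 Mb and 1.04% further in. By that measure the ends were not above the next 1 Mb. Their median length was 150 bp and the median size of the difference 7.01 points. The share of bins called was 1.21% in the outermost 100 kb and 1.46% at 300 to 600 kb, so that it was not highest where the methylation level was. An end held 47 to 156 CHH DMRs, with a median of 110.5, counts that were not divided by the bins tested in it. The fewest were in the right end of chromosome 17, which had the highest CHH level without the arrays. The most were in the left end of chromosome 1. At 32 of 38 ends there were more lower than higher DMRs.

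The CHH DMRs with the smallest adjusted p lay in or next to arrays. On chromosome 4, positions 1 to 525, the mean CHH level of the strongest bin (42 cytosines) went from 71.7% to 99.4%, and CHH over the whole DMR from 81.5% to 91.4%. On chromosome 2, positions 187626 to 188125, that of the strongest bin (47 cytosines) went from 81.8% to 33.3%, while CHH over the whole DMR (169 cytosines) was 95.8% in 2X and 93.5% in 4X. Of the DMRs of the ends, 1869 of 1874 higher and 2298 of 2310 lower ones lay away from arrays. The strongest of these, picked after their values were seen, was higher on chromosome 3 at positions 959901 to 960250. The mean CHH level of its strongest bin was 65.7% in 2X and 96.7% in 4X, in 37 cytosines. By reads it was 166 of 286 methylated in 2X and 144 of 185 in 4X, a smaller difference, and over the whole DMR CHH went from 34.5% to 44.8%. The strongest lower one was on chromosome 15 at positions 373976 to 374350. The mean CHH level of its strongest bin (38 cytosines) went from 23.6% to 1.28%, by reads from 36 of 255 methylated to 3 of 262, and over the whole DMR CHH went from 5.85% to 0.574%.

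By the Fisher test the strongest CG DMR of the ends, also picked after its values were seen, lay on chromosome 3 at positions 184801 to 185250. Its strongest bin had 0 of 102 methylated reads in 2X, which allows a level of up to 2.94%, and 105 of 109 in 4X (96.3%). Over the whole DMR, CHG went from 1.04% to 72.3% over 9 cytosines, while CHH was 0.153% and 1.82%. CG and CHG thus differed together there and CHH stayed low. On chromosome 14, positions 29388276 to 29388450, CG went from 80.6% (54 of 67 reads, 2 cytosines) to 2.04% (1 of 49). In CHG the strongest DMRs were on chromosome 15 at positions 19376851 to 19377375, from 19.8% (32 of 162 reads) to 85.1% (137 of 161), and on chromosome 3 at positions 48551 to 48850, from 72.8% (99 of 136 reads) to 13.8% (17 of 123). No gene or repeat annotation of this build was used, so what lies at these positions is not stated.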

How the data were processed

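Whole-genome bisulfite sequencing of 2X and 4X was used, with 1 library per line and groups taken from the labels. Per the study's methods, the authors dropped poor reads and aligned the pairs to the grapevine genome with a program written as Bimark. Its version, duplicate handling, bisulfite conversion and the build: not given in the sources used here. Different DNA kits are named by the labels and by the methods. The deposited methylation level is a percent per cytosine, and deposited counts give the methylated and the unmethylated reads of each cytosine, unnormalized. The level equalled methylated over all reads in every line. The files held 1403178852 (2X) and 1282456984 (4X) base calls, and 10 and 6 cytosines had no context and were left out.

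Cytosines of chromosomes 1 to 19 listed in both files were used. The level of a region was its methylated reads over all its reads, with 95% Wilson and, for differences, Newcombe intervals. Windows needed 20 cytosines of a context. Fisher exact tests, stratified Cochran-Mantel-Haenszel tests and Kruskal-Wallis tests were two-sided, with Benjamini-Hochberg adjustment over the 19 chromosomes and a threshold of 0.05. All of these tests, and the intervals, treat neighbouring cytosines as independent although these share reads. Overlapping or adjacent bins of 1 direction were merged into DMRs. The tests were also run on simulated data, with the outcome not reported here. The stratified test was added after the pooled values were seen. Named ends, windows and DMRs were, per context, those with the highest and lowest levels, differences and gradients, and the windows and DMRs with the largest difference or smallest adjusted p in each direction. The regions and rules were chosen with earlier results of these data known. Settings varied were the minimum coverage, the upper limit on depth, the weighting, the cytosines included, the outermost window, the size limit and the test. Figures were drawn with matplotlib 3.10.9, and tests were run with scipy 1.17.1 and numba 0.67.0 on tables read with pandas 2.3.3 and numpy 2.4.6 (Python 3.11.15).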

Additional observations from a re-analysis of the deposited data

Results flagged for a closer look

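Cytosines of the ends listed in 1 library only entered no comparison, and reads there showed methylation above the limit that a count of 0 allows. In 2X only, the level was 49.5% in CG (72366 cytosines), 23.9% in CHG and 2.50% in CHH. In 4X only, it was 46.3% in CG (65393 cytosines), 21.0% in CHG and 2.30% in CHH. Their mean depth was 4.66 to 4.90 reads. The shared cytosines of the ends were at 56.7% and 56.8% in CG, 22.5% and 22.0% in CHG and 3.04% and 3.36% in CHH (2X and 4X). The CHG cytosines listed in 2X only were thus above the shared ones and the others below. In CHH this order held only with the arrays. Away from the arrays the shared CHH cytosines were at 2.06% in 2X and 2.02% in 4X, below those listed in 1 library only. Arrays were not taken out of the cytosines listed in 1 library only.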

How the results depend on the processing

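The values below refer to all reads pooled, and each setting changed 1 choice. CG in the ends, 0.0425 points higher in 4X, became 0.199 for cytosines of 10 or more reads in 2X and 4X alike, 0.197 as the mean of cytosine levels, -0.0189 without the deepest cytosines, -0.0675 with each library by itself, -0.122 without the outermost 10 kb and 0.249 with each cytosine its own stratum. The CHG difference, -0.515, became -0.366, -0.0523, -0.569, -0.602, -0.578 and -0.0297 in the same order. The CHH difference, 0.317, became 0.487, -0.0331, -0.0472, 0.300, 0.274 and -0.0286, and -0.0481 without the arrays. With the first 5 settings in that order, the ends minus the rest in 2X went from -2.85 in CG to -1.91, -4.59, -4.25, -2.96 and -3.82, from -5.66 in CHG to -4.87, -6.86, -6.32, -5.77 and -6.08, and from 0.634 in CHH to 1.09, -0.369, -0.345, 0.593 and 0.532, and to -0.321 without the arrays. The outermost minus the innermost 100 kb in 2X went from 13.8 in CG to 10.6, 20.3, 18.6, 14.3 and 9.27, and from 5.26 in CHH to 6.38, 1.36, 1.20, 5.14 and 4.83, and to 1.04 without the arrays. In CHG it went from 19.5 to 19.02 with at least 10 reads, 20.4 as the mean of cytosine levels, 20.1 without the deepest and 17.5 without the outermost 10 kb. The gradient thus kept its direction in all settings run.

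Windows called in the ends went from 251 in CG to 14 with the mean of cytosine levels for the size, 16 with a limit of 10 points and 35 with each cytosine its own stratum, 31 of those 35 being higher in 4X (88.6%, against 53.0% of the pooled calls). In CHG they went from 113 to 29, 10 and 26, and in CHH from 103 to 27 with a limit of 2 points and to 61 with strata. DMRs went from 0 to 875 in CG and from 0 to 837 in CHG with the Fisher test, and CHH DMRs from 4184 to 1279 with at least 10 reads. The CG window at 250 kb from the right end of chromosome 5 went from 11.98 to -0.152 points with strata. The causes of these changes were not tested. The settings without arrays and with strata were added once values had been seen.

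No paired analysis was possible because 2X and 4X had 1 library each, and no replicate could be left out for the same reason. The spread between vines is not known, so no difference between 2X and 4X can be assigned to ploidy. Depths of 12.8 to 14.5 reads per cytosine limit single sites, and the libraries share no check of bisulfite conversion here.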
